A study of Mus musculus with 6 samples.

Results

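Wnt proteins are secreted, lipid-modified signals that bind a frizzled receptor together with the coreceptor LRP5 or LRP6. In the canonical branch this stops the destruction of beta-catenin, which then acts with TCF and LEF factors on target genes, while other branches act on cell polarity and calcium. Frizzled-related proteins and WIF1 bind the ligand outside the cell, and DKK1, DKK2 and sclerostin block the coreceptors. In bone, canonical signalling is known to favour osteoblast formation, and several ligands and antagonists also mark the growth plate and the marrow stroma. The report concerns the Wnt ligands, the frizzled and LRP receptors, the secreted antagonists with Kremen1, a cell-surface receptor for DKK proteins, and the target genes Axin2 and Lef1. Membership follows a rule on gene names that uses no measured value, but it was chosen with earlier results of these data known. 39 of the 25491 genes of the deposited table met the rule: 14 ligands, 12 receptors, 11 antagonists (Kremen1 included) and 2 target genes. All 39 had at least 10 counts summed over the 6 libraries and were tested.

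The study compared mesenchymal progenitor cells, bone marrow stromal cells, of wild type and Lama4-/- mice. Lama4 encodes the laminin alpha 4 chain of basement membranes. The labels write the genotype as Lama4-/- and name no Cre driver, and they do not say whether the wild type mice were littermates. All mice were C57BL/6J, aged 14 weeks, and both genotypes had received a sublethal radiation dose of 7 Gy 6 weeks earlier, so no unirradiated cells are compared. Cells were sorted as CD45-, TER119-, CD31-, CD44- and SCA1- with CD51+, and each genotype had 3 libraries. The design text speaks of 3 mice of each genotype, and the labels do not tie a library to an animal. The p-values rest on the spread among the 3 libraries of each genotype.

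Libraries held 6263830 to 15663957 counts, with the lowest total in wild type replicate 2. Lama4 was at 39.7 ± 6.13 CPM (SD, n = 3; CPM is the count relative to the TMM-scaled library total) in wild type and had 0 counts in each Lama4-/- library. With 3 counts over the group as the floor, it was at least 579-fold lower, and the floor covers counting error only. Its edgeR adjusted p was 0.0350, and it was above 0.05 with any 1 library other than Lama4-/- replicate 3 left out (0.0501 to 0.572). Of 10 marker genes of marrow mesenchymal stroma, 10 were counted in every library, and cartilage and osteoblast markers were abundant as well. The 10 stroma genes summed to 11367, 11514 and 5237 CPM in wild type and 7143, 7372 and 4754 in Lama4-/- replicates 1 to 3. Itgav, Kitl, Lepr, Pdgfra and Pdgfrb were lower in every Lama4-/- library than in any wild type library (10.5% of all genes). Adipoq, Cxcl12, Ebf3, Foxc1 and Prrx1 overlapped between genotypes. The Lama4-/- libraries varied among themselves, and replicate 2 lay nearest to wild type. Across genes its mean Pearson's r was 0.872 with the wild type libraries and 0.835 with the other Lama4-/- libraries, a description in which genes are not independent. For replicates 1 and 3 the mean r with their own genotype was 0.814 and 0.807. The counts over all 39 genes at an unadjusted p under 0.05 and without overlap are also given without replicate 2. Summed markers moved with genotype or library: 6 chondrocyte genes were at 82660 to 120135 CPM in wild type and at 53717, 104701 and 55047 in Lama4-/- replicates 1 to 3. The 7 osteoblast genes were at 44241 to 56563 CPM in wild type and at 58077, 31884 and 94581 in Lama4-/-. Col2a1 and Col1a1 held most of these sums. Among the chondrocyte genes Acan, Col9a1, Col11a1 and Sox9 were lower in Lama4-/- without overlap, and Col2a1 and Matn1 overlapped. Among the osteoblast genes Runx2 was lower without overlap (189, 123 and 189 against 72.9, 74.5 and 59.1 CPM), Ibsp was higher without overlap, and the others overlapped. The 8 erythroid genes were at 287 to 1744 against 1415 to 3967 CPM, and 12 neutrophil and monocyte genes at 49.4 to 141 against 123 to 805 CPM. The 6 endothelial genes in the table were at 4.67 to 7.57 against 0.119 to 1.17 CPM, with 4 or 5 of 6 counted in each wild type library and 1 to 3 in Lama4-/-. The part of these cells in the results was not tested, and fewer cells of a type cannot be told apart from less RNA per cell. Marker values are given without removal of the trend with transcript length described below, and the part of that trend in them was not tested.

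No Wnt gene passed an adjusted p of 0.05 in the comparison of Lama4-/- with wild type (edgeR quasi-likelihood test, 0 of 39, smallest adjusted p = 0.316 for Fzd1). Of all 19573 genes tested, 0.00511% passed, which is Lama4 alone. At an unadjusted p under 0.05 there were 12 Wnt genes. 9 of the 39 were lower in Lama4-/-, beside 7.97% of all genes, and 3 were higher, beside 3.67%. The lower genes were Dkk3, Fzd1, Fzd4, Lrp6, Wnt10b, Wnt2b, Wnt5a, Wnt7b and Wnt9a, and the higher were Frzb, Wnt4 and Wnt5b. Every Lama4-/- library lay below every wild type library in 13 of the 39, beside 10.5% of all genes, and above it in 5, beside 8.32%. The log2 fold change was negative in 23 of the 39 (52.7% of all genes) and positive in 16 (47.3%), with medians of -0.58 over the 39 and -0.07 over all tested genes. In either direction it was 12 of 39, beside 11.6% of all genes, and single libraries moved this count. It was 7, 6 and 5 without wild type replicates 1, 2 and 3 (8.66%, 10.7% and 7.2% of all genes), 9 without Lama4-/- replicate 1 (9.36%) and 6 without Lama4-/- replicate 3 (9.53%). In the same order, 5, 3, 3, 6 and 4 of these were lower and 2, 3, 2, 3 and 2 higher. Shares of all genes by direction are not given for these fits. With all 6 libraries more of all genes were lower (7.97%) than higher (3.67%), so these counts by direction are no result about the Wnt genes. Lama4-/- replicate 2 lay nearest to wild type, so leaving it out by itself sets the genotypes further apart. Without that library the count was 17 (13.1%), 15 lower (beside 9.83% of all genes) and 2 higher (beside 3.28%). The genotypes then did not overlap in 16 lower genes (beside 18.3% of all genes) and 6 higher (beside 13.1%).

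DESeq2, the other tool run, called 4 of the 39 at an adjusted p of 0.05, where it called 2.91% of all 25491 genes. It gave an adjusted p for 37 of the 39. The DESeq2 shares also count genes without an adjusted p, so they are lower than over genes with one. Fzd1 (adjusted p = 0.0233), Wnt9a (0.0402) and Wnt2b (0.0447) were lower, beside 2.23% of all genes, and Wnt5b (0.0397) was higher, beside 0.679%. An adjusted p is given for 24 of the 39 in the authors' deposited table, and Fzd1 (0.0188) and Wnt5b (0.0317) are under 0.05, beside 6.63% of the genes with an adjusted p in that table. limma voom called 0 of the 39 and 0% of all genes, with 16 Wnt genes at an unadjusted p under 0.05 (14.5% of all genes).

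**Figure D1:**
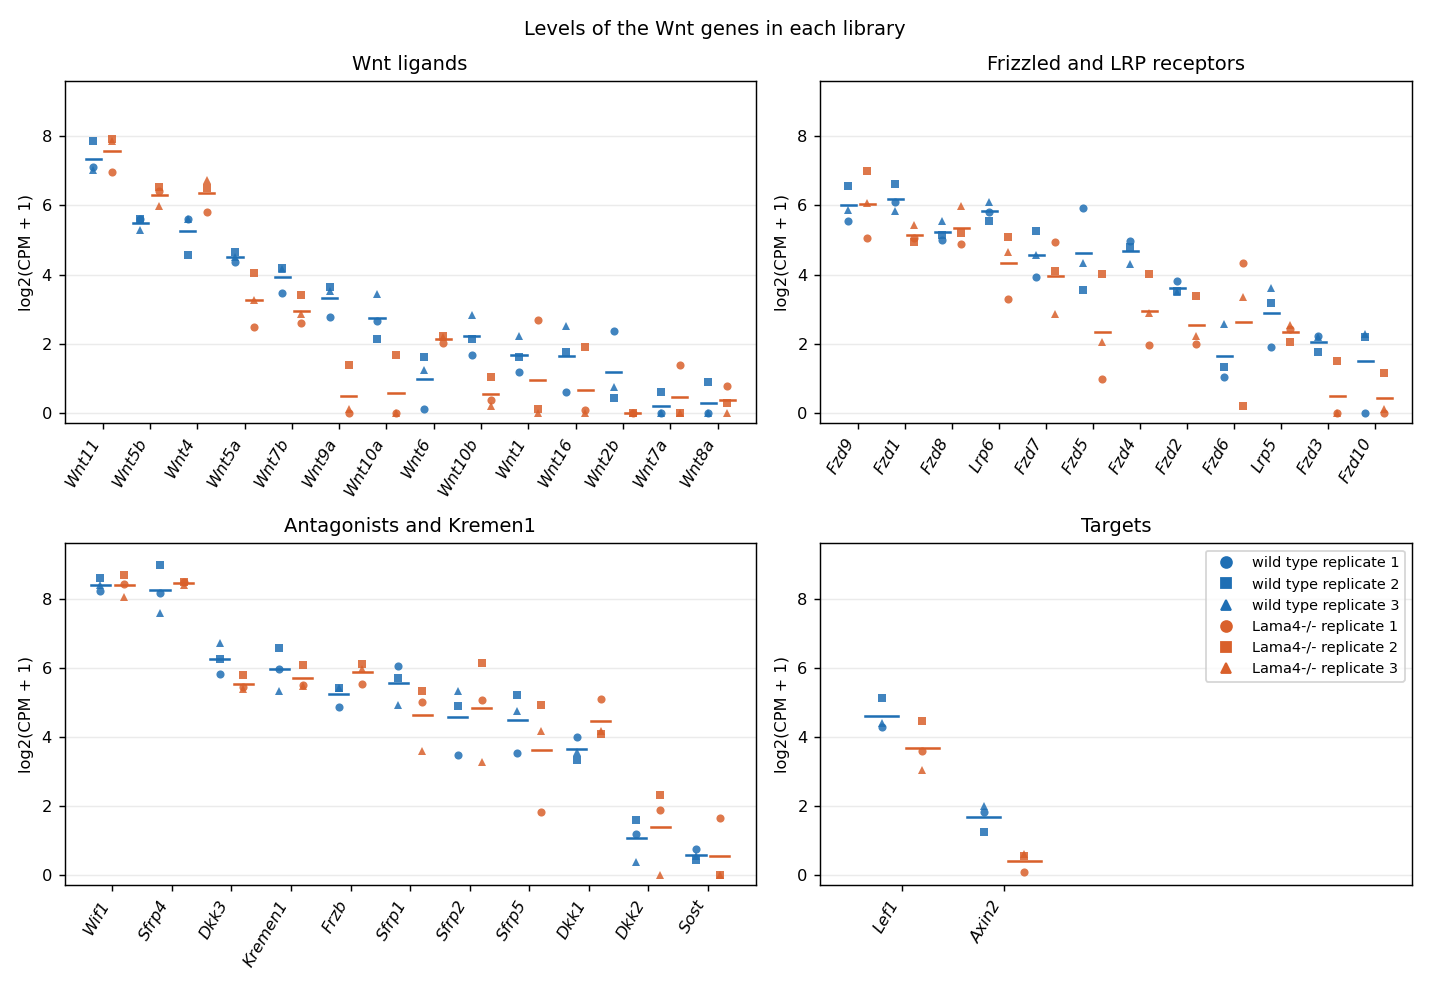
log2(CPM + 1) of each Wnt gene in each of the 6 libraries, in panels by role, with genes ordered by mean level. Blue points are wild type and orange points Lama4-/-, the marker shape gives the replicate number, and bars are means of the plotted values over 3 libraries. Wnt4 and Wnt5b lie higher and Wnt5a, Wnt7b, Wnt9a, Fzd1, Fzd4 and Lrp6 lower in all 3 Lama4-/- libraries.

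Fold changes in these libraries followed transcript length. Ranked by longest annotated transcript, the 1957 shortest genes (median 486 bases) had a median log2 fold change of 0.23 and the 1957 longest (median 7749 bases) one of -0.89. Spearman's rank correlation with the longest annotated transcript was -0.29 over 19562 genes, which are not independent. Of the 39 Wnt genes 6 were among those longest genes, Fzd3, Fzd4, Fzd5, Lrp5, Lrp6 and Wnt5a, each with a negative log2 fold change. Values after removal of that trend are given beside many of the others, but not all. Fzd5 went from -2.24 to -1.49. After its removal the median was -0.34 over the 39 and -0.02 over all genes, with 23 of the 39 negative (51.2% of all genes) and 16 positive (48.8%). At an unadjusted p under 0.05 there were then 9 Wnt genes (8.21% of all genes). 5 Wnt genes were then lower at an unadjusted p under 0.05 (4.31% of all genes), Dkk3, Fzd1, Wnt10b, Wnt2b and Wnt9a. 4 were higher (3.9% of all genes), Frzb, Fzd8, Wnt4 and Wnt5b. Libraries of the genotypes did not overlap in 9 lower genes (7.1% of all genes) and in 5 higher (7.06%).

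**Figure D2:**
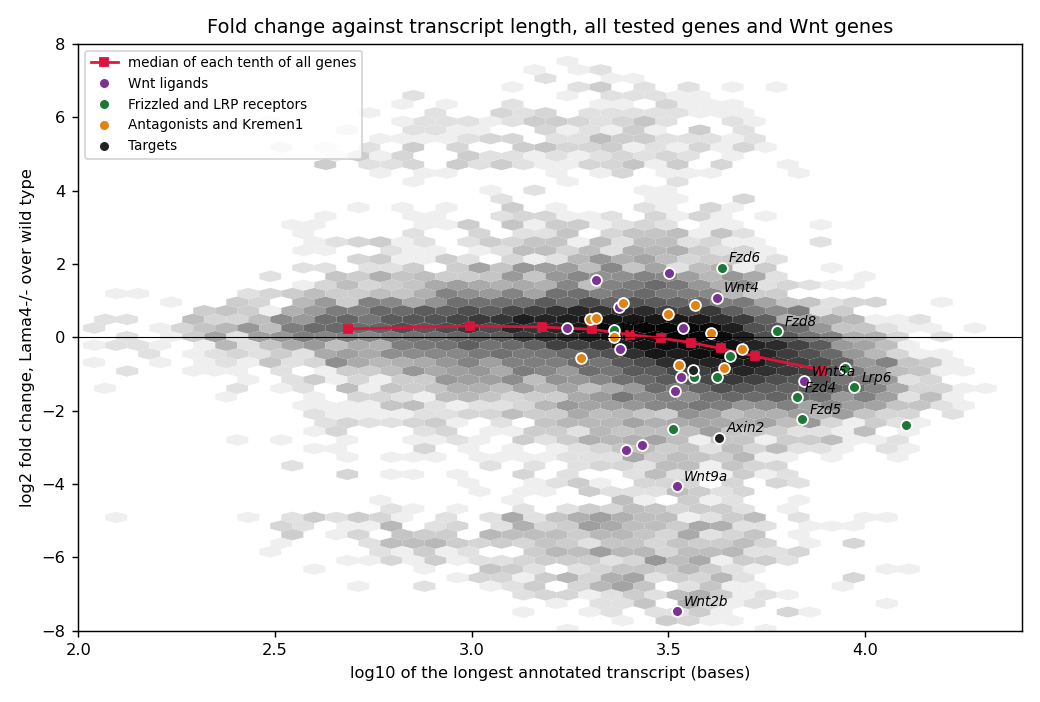
log2 fold change of Lama4-/- over wild type against log10 of the longest annotated transcript in bases, for all tested genes as grey hexagons (darker for more genes, fold changes beyond 8 on the log2 scale not drawn) and for the Wnt genes as points coloured by role. The red line joins the medians of 10 length classes of all genes, from 0.23 to -0.89, and long Wnt genes such as Lrp6, Fzd4, Fzd5 and Wnt5a lie on its falling side.

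The ligand pool was led by Wnt11, Wnt5b and Wnt4 in both genotypes, with Wnt5b and Wnt4 at higher and most minor ligands at lower values in Lama4-/-. Of the 14 ligands, 8 were on the negative side (52.7% of all genes) and 6 on the positive (47.3%). Their median log2 fold change was -0.70 (-0.46 with the length trend removed). Wnt5b, a ligand of the non-canonical branch known from growth plate cartilage (chromosome 6, 119432531 to 119544347, minus strand, GRCm38), was at 47.8, 47.5 and 37.7 CPM in wild type replicates 1 to 3. In Lama4-/- replicates 1 to 3 it was at 83.8, 92.2 and 62.2 CPM. The groups did not overlap, with a log2 fold change of 0.84 (SE 0.24, edgeR adjusted p = 0.324), and leaving out any 1 library kept it between 0.71 and 0.99. Wnt4 (chromosome 4, 137277489 to 137299726, plus strand), which can signal with or without beta-catenin, was at 47.8, 22.5 and 47.6 CPM in wild type. It was at 54.7, 90.2 and 106 CPM in Lama4-/-, again without overlap. Its log2 fold change was 1.09 (SE 0.37, edgeR adjusted p = 0.374), and 1.33 after removal of the trend. Wnt11, a non-canonical ligand that was the most abundant of the 14 per length, was at 137, 233 and 129 against 125, 240.1 and 234 CPM, where the genotypes overlapped (log2 fold change 0.27, SE 0.33).

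Wnt5a, the relative of Wnt5b with a longer transcript (7010 against 2371 bases), differed in the other direction. It was at 19.5, 24.3 and 21.8 CPM in wild type and at 4.59, 15.4 and 8.52 CPM in Lama4-/-. All 3 Lama4-/- libraries were below the lowest wild type library, and replicate 2 was the nearest to it. The log2 fold change was -1.20 (SE 0.48, edgeR adjusted p = 0.416), and after removal of the trend it was -0.45 and the libraries overlapped. Wnt7b, a ligand tied to osteoblast formation, was at 10.1, 17.4 and 16.7 against 5.07, 9.53 and 6.26 CPM. Its groups did not overlap with or without the length trend, and its log2 fold change was -1.08 (SE 0.47, edgeR adjusted p = 0.429) and -1.01.

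The low-level ligands Wnt9a, Wnt10a, Wnt10b and Wnt2b had 0 to 29 counts in each Lama4-/- library, with the most in replicate 2 for all but Wnt2b. Wnt9a, which acts in joint formation, had 78, 68 and 136 counts in wild type and 0, 21 and 1 in Lama4-/-. In CPM that was 5.88, 11.5 and 10.4 against 0, 1.59 and 0.073, a log2 fold change of -4.06 (SE 1.51, edgeR adjusted p = 0.391). The few Lama4-/- counts came almost entirely from replicate 2, and without it the fitted value was -7.74. Wnt10b, a canonical ligand that favours osteoblasts over adipocytes, had 29, 20 and 79 counts against 5, 14 and 2, or 2.19, 3.38 and 6.04 against 0.298, 1.06 and 0.146 CPM. On the log2 scale it differed by -2.93 (SE 1.20, edgeR adjusted p = 0.419). Wnt10a, its relative, had 71, 20 and 128 counts against 0, 29 and 0, so Lama4-/- replicate 2 alone held counts, at 2.19 CPM. The log2 fold change of Wnt10a was -3.07 (SE 1.81, edgeR adjusted p = 0.486). Wnt2b had 55, 2 and 9 counts in wild type, 4.14, 0.338 and 0.688 CPM, and 0 in every Lama4-/- library. Against a floor of 3 counts over the Lama4-/- group it was at least 29.8-fold lower, and most of its wild type counts came from replicate 1. The fitted log2 fold change of Wnt2b was -7.47 (SE 2.23, edgeR adjusted p = 0.360). Transcripts of these 4 genes were 2468 to 3320 bases, and their log2 fold changes moved little with the length trend removed, to -4.05 for Wnt9a, -3.06 for Wnt10b, -3.27 for Wnt10a and -7.45 for Wnt2b, the last a fitted value that is no bound.

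The remaining ligands were near the limit of counting. Wnt6 had 1, 12 and 18 counts in wild type and 51, 48 and 49 in Lama4-/-, and its groups did not overlap (0.075, 2.03 and 1.38 against 3.04, 3.63 and 3.57 CPM). Its edgeR adjusted p was 0.632. Wnt1, Wnt16, Wnt7a and Wnt8a had means of 0.298 to 2.09 CPM over the 6 libraries, overlapped between genotypes and had 0 counts in at least 1 Lama4-/- library. Lama4-/- replicate 3 had counts for 8 of the 14 ligands, where the other libraries had counts for 11 to 14.

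Summed per kilobase of transcript, ligand levels overlapped between genotypes, at 83.7, 110.8 and 85.7 CPM per kb in wild type and 91.5, 139 and 124 in Lama4-/-. Wnt11 made up 50.6 ± 9.12% (SD, n = 3) of this sum in wild type and 47.97 ± 7.72% in Lama4-/-. Wnt5b made up 20.3 ± 3.36% against 29.2 ± 8.85%, and Wnt4 10.6 ± 4.96% against 16.7 ± 3.28%. The share of Wnt5a was 3.36 ± 0.248% against 1.09 ± 0.442% and that of Wnt9a 2.97 ± 0.781% against 0.120 ± 0.193%, in both cases with no overlap. These shares compare levels between genes on the scale of CPM per kb of the longest annotated transcript and carry the length trend described above.

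**Figure D3:**
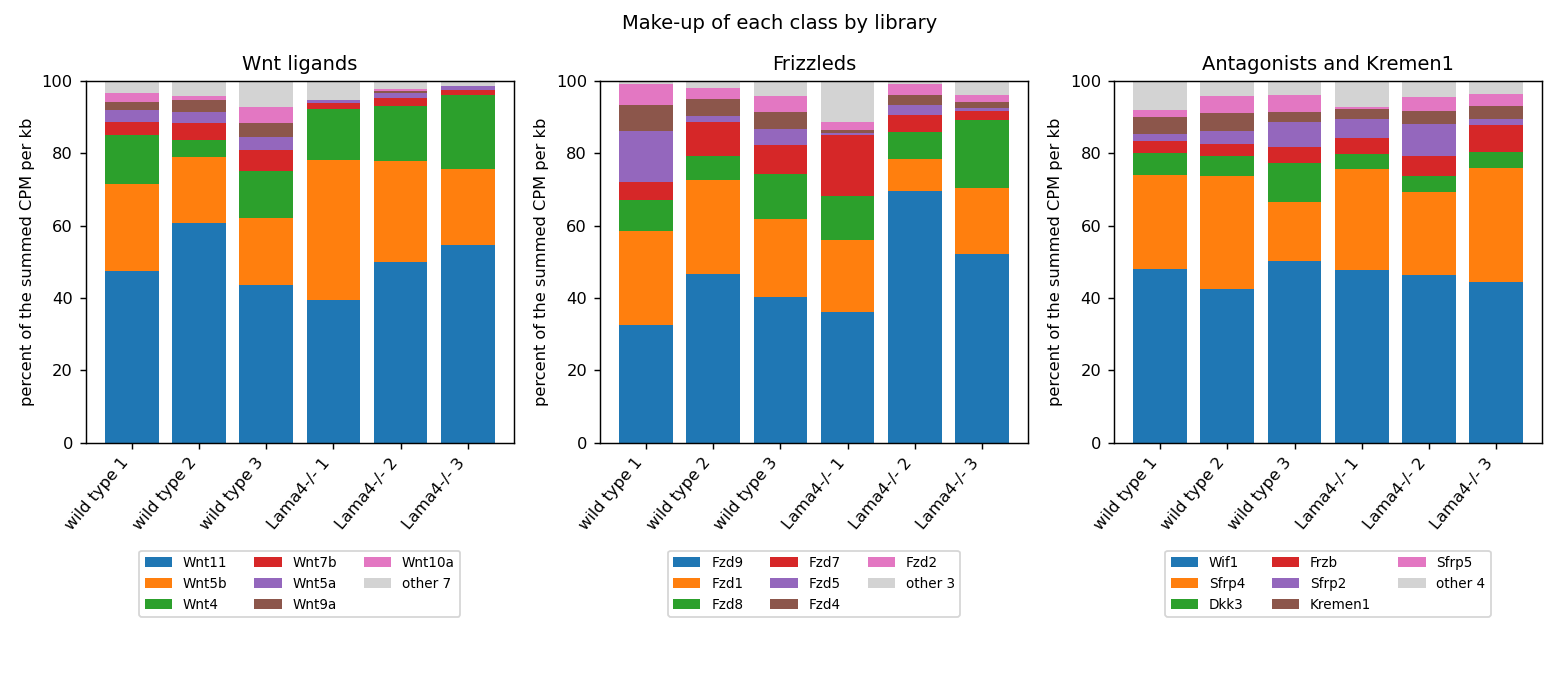
Stacked bars of the share, in percent, that each gene takes of the summed CPM per kb of its class in each of the 6 libraries, for the 14 ligands, the 10 frizzleds and the 11 antagonists with Kremen1. The 7 genes with the highest mean share are named and the others pooled in grey. Wnt11, Fzd9 and Wif1 take the largest share of their class in each of the 6 libraries, and the segments of Wnt5a, Wnt7b and Wnt9a are thinner in all 3 Lama4-/- libraries.

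Among receptors 9 of 12 were on the negative side, beside 52.7% of all genes, the median log2 fold change was -1.08, and in 5 the groups did not overlap, all on the lower side (10.5% of all genes). Removal of the length trend gave a median of -0.57, with 8 of 12 negative (51.2% of all genes). Of the 5 without overlap only Fzd1 and Fzd2 still had none. Fzd1, a receptor for canonical and other Wnt signals (chromosome 5, 4753839 to 4758035, minus strand), had the smallest p of the 39 genes. It was at 67.4, 96.4 and 56.6 CPM in wild type and at 32.4, 29.4 and 42.0 CPM in Lama4-/-. The groups did not overlap, the log2 fold change was -1.08 (SE 0.28, edgeR adjusted p = 0.316), and it lay between -1.25 and -0.84 with any 1 library left out. With the length trend removed it was -0.79, and the groups still did not overlap. Fzd4, a receptor known from vessels that also binds the non-Wnt ligand norrin, was at 30.1, 26.7 and 18.8 against 2.86, 15.1 and 6.33 CPM. The log2 fold change was -1.64 (SE 0.60, edgeR adjusted p = 0.390), and -0.93 after removal of the trend, when the groups overlapped. Without Lama4-/- replicate 2 it was -2.47. The endothelial markers given above were lower in the same libraries, and their part in the Fzd4 values was not tested. Fzd2 was at 12.96, 10.5 and 10.2 against 2.98, 9.38 and 3.64 CPM, with no overlap (log2 fold change -1.07, -0.97 without the length trend).

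LRP5 and LRP6 are the coreceptors of the canonical branch, and both genes have long transcripts. Lrp6 (chromosome 6, 134446476 to 134566965, minus strand) has a longest transcript of 9368 bases. It was at 55.0, 46.0 and 68.2 CPM in wild type and at 8.89, 33.0 and 23.9 CPM in Lama4-/-, with no overlap. The log2 fold change was -1.36 (SE 0.46, edgeR adjusted p = 0.372), and -0.34 after removal of the trend, when the groups overlapped. Lrp5, the coreceptor tied to bone mass, was counted far less, at 2.71, 7.95 and 11.3 against 4.35, 3.10 and 4.804 CPM, and overlapped. Its log2 fold change was -0.84 and, with the length trend removed, 0.15. Per kb of transcript, Lrp6 was at 6.02 ± 1.19 and Lrp5 at 0.824 ± 0.487 CPM per kb in wild type (SD, n = 3), and at 2.34 ± 1.30 and 0.459 ± 0.0993 in Lama4-/-.

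Most other frizzleds overlapped between genotypes. Fzd9, the most abundant frizzled per length and a receptor known from osteoblasts, was at 46.0, 94.0 and 57.4 against 32.4, 127 and 65.7 CPM. Fzd8 was at 31.2, 34.5 and 46.1 against 28.4, 36.1 and 61.6 CPM; its log2 fold change was 0.17 (SE 0.34) and 0.84 with the length trend removed, where the groups did not overlap. Fzd7 was at 14.2, 37.2 and 22.6 against 29.8, 16.03 and 6.19 CPM. Fzd5 was at 59.98, 10.8 and 19.3 against 0.954, 15.1 and 3.13 CPM, so wild type replicate 1 carried much of its mean and Lama4-/- replicate 2 lay within the wild type range. Of its exonic bases 17.8% are shared with Gm38058, and the kit does not mark strand. Fzd6 varied within both genotypes, at 1.05, 1.52 and 4.97 against 19.1, 0.151 and 9.24 CPM. Fzd3 was at 3.62, 2.37 and 3.59 against 0, 1.81 and 0 CPM, low but without overlap. Fzd10 was at or under 3.82 CPM in every library and at 0 in some. The summed frizzled level was 61.7, 88.0 and 62.2 CPM per kb in wild type and 38.97, 79.4 and 54.9 in Lama4-/-, where Lama4-/- replicate 2 lay within the wild type range.

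**Figure D4:**
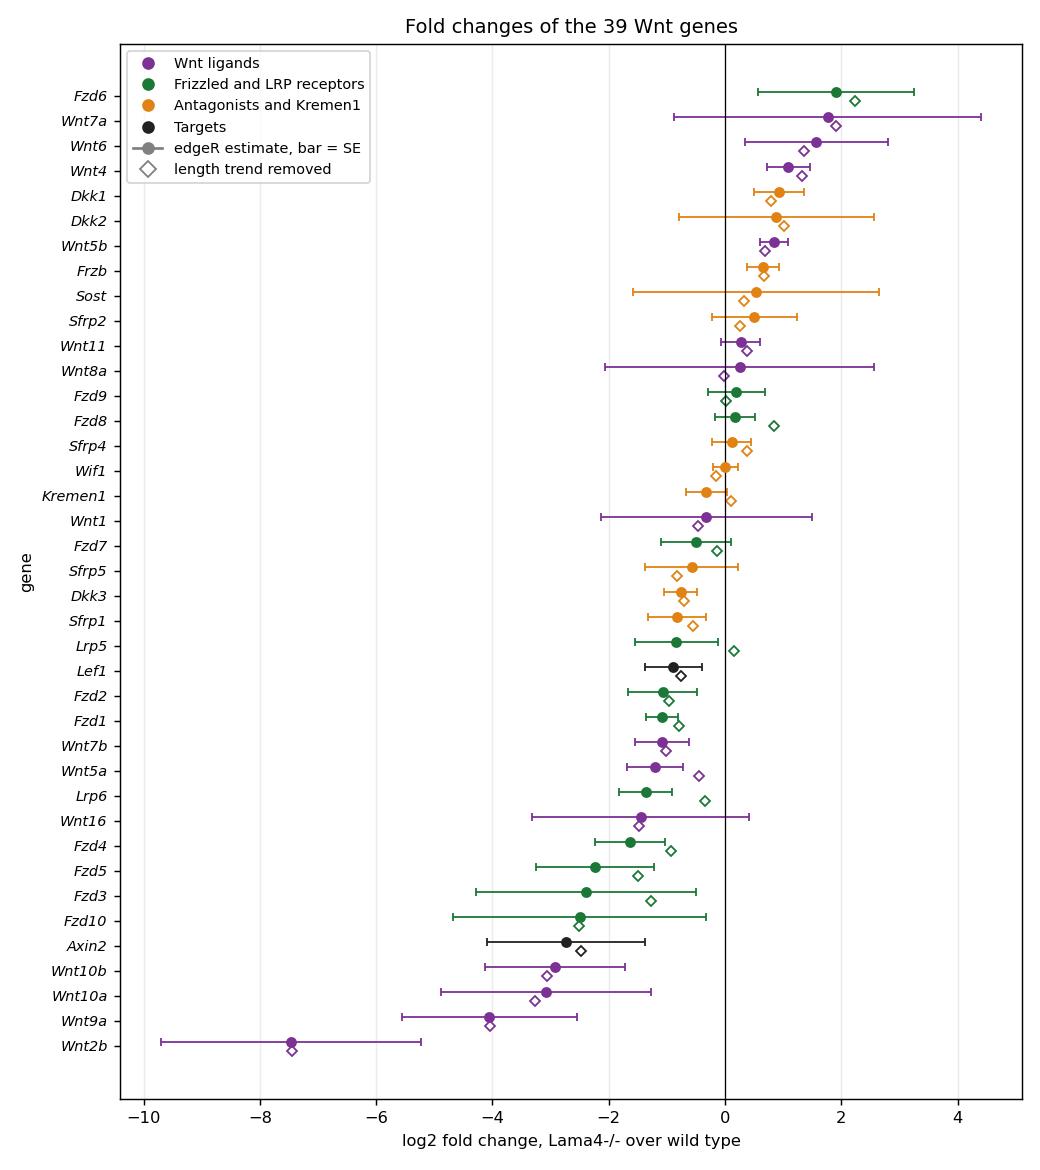
log2 fold change of Lama4-/- over wild type for each of the 39 Wnt genes, ordered by value and coloured by role. Filled points are edgeR estimates with their SE as bars, and open diamonds the same with the length trend removed. Diamonds lie nearer to 0 than points for Lrp6, Fzd4, Fzd5, Fzd3 and Wnt5a and close to the points for Wnt9a, Wnt10a and Wnt10b.

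The secreted antagonists Wif1 and Sfrp4 had the highest levels of the 39 genes and overlapped between genotypes. Over the antagonists with Kremen1 the median log2 fold change was 0.11, over 11 genes, 7 of them positive, beside 47.3% of all genes. With the length trend removed that median was 0.26. Wif1, a Wnt-binding factor of cartilage and bone (chromosome 10, 121033960 to 121100650, plus strand), was at 298, 387 and 333 CPM in wild type and at 343, 412 and 266 in Lama4-/-. Its log2 fold change was 0.005 with an SE of 0.215, and it lay between -0.17 and 0.15 with any 1 library left out. Sfrp4, a frizzled-related protein needed for normal cortical bone, was at 282, 502 and 191 against 358, 359.6 and 335 CPM (log2 fold change 0.11, SE 0.33). Per kb, Wif1 was at 148 ± 19.7 against 148 ± 32.0 and Sfrp4 at 80.3 ± 39.5 against 86.6 ± 3.46 CPM per kb (SD, n = 3), above every other gene of the 39.

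Frzb and Dkk1 had higher and Dkk3 lower values in all Lama4-/- libraries, without overlap. Frzb, a frizzled-related protein of cartilage (chromosome 2, 80411970 to 80447625, minus strand), was at 28.03, 41.3 and 41.7 against 44.7, 68.5 and 60.8 CPM. Its log2 fold change was 0.65 (SE 0.27, edgeR adjusted p = 0.427), and 0.67 after removal of the trend. Dkk1, the classical inhibitor of LRP5 and LRP6 (chromosome 19, 30545863 to 30549665, minus strand), was at 14.99, 9.13 and 10.8 against 33.5, 16.03 and 17.03 CPM. The lowest Lama4-/- library was close to the highest wild type library, and Lama4-/- replicate 1 carried the mean. The log2 fold change was 0.93 (SE 0.43, edgeR adjusted p = 0.435), 0.50 without Lama4-/- replicate 1, and the groups overlapped with the length trend removed. Dkk3, a divergent member of the family that does not bind the coreceptors in the way DKK1 does (chromosome 7, 112116017 to 112159057, minus strand), was at 54.9, 75.1 and 104 against 42.8, 54.7 and 40.3 CPM. The nearest libraries of the genotypes, at 54.9 and 54.7 CPM, were close, and the log2 fold change was -0.76 (SE 0.28, edgeR adjusted p = 0.391).

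The other antagonists overlapped between genotypes. Sfrp1 was at 64.6, 50.7 and 29.1 against 31.0, 39.2 and 11.1 CPM. Sfrp2 was at 10.02, 28.9 and 38.9 against 32.3, 69.4 and 8.66 CPM, and 16.1% of its exonic bases are shared with Gm26771. Sfrp5 was at 10.5, 36.2 and 25.7 against 2.50, 29.2 and 16.8 CPM. These 3 frizzled-related genes varied several-fold between libraries of 1 genotype. Kremen1 was at 61.3, 93.5 and 39.5 against 44.5, 66.9 and 43.6 CPM. Dkk2 had 17, 12 and 4 counts against 45, 52 and 0. Sost, the osteocyte gene for sclerostin, had 9, 2 and 6 counts against 36, 0 and 0, and osteocyte markers (4 genes summed) were at 222 to 427 against 189 to 621 CPM.

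Axin2 and Lef1 are both read as targets of canonical signalling, Axin2 being a feedback inhibitor of beta-catenin and Lef1 a transcription factor that binds it. Axin2 (chromosome 11, 108920349 to 108950783, plus strand) was low, with 34, 8 and 39 counts in wild type and 1, 6 and 7 in Lama4-/-. In CPM it was at 2.56, 1.35 and 2.98 against 0.0596, 0.454 and 0.509, and the groups did not overlap. On the log2 scale Axin2 differed by -2.73 (SE 1.36, edgeR adjusted p = 0.451), and -2.48 after removal of the trend. Lef1 (chromosome 3, 131110471 to 131224356, plus strand) was at 18.4, 34.0 and 20.0 against 10.9, 20.9 and 7.13 CPM. Lama4-/- replicate 2 lay among the wild type libraries, and the groups overlapped (log2 fold change -0.89, SE 0.48, edgeR adjusted p = 0.463). Of its exonic bases 13.7% are shared with Gm43352.

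TCF and LEF factors bind DNA around the core CTTTGA, and promoters were searched for it and for its reverse complement TCAAAG. Windows of 250 bases before to 50 after the start came from RefSeq (GRCm38.p6) for 25 of the 39 genes, 31 windows in all. The core stood in 6 of them (19.4%), beside 16.003% of all 32851 windows of that length. The 6 genes were Dkk1, Frzb, Fzd1, Lef1, Wnt11 and Wnt5b, and the Axin2 window held no match. Shown are the 4 of these genes whose libraries did not overlap between genotypes, with the match in capitals, written 5′ to 3′ on the strand of the gene. For Fzd1 and for 1 of the 3 windows of Wnt5b the whole 250 bases before the start are given. For Dkk1, which holds 2 matches, and Frzb, where the match lies within exons of the GENCODE annotation or at their edge, only 10 bases on each side are given.
Fzd1, chr5:4758217-4758466: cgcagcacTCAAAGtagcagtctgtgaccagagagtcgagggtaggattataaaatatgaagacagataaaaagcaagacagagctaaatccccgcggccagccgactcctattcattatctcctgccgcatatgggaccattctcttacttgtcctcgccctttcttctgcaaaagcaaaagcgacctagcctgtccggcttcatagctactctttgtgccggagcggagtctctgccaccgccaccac
Wnt5b, chr6:119449387-119449636: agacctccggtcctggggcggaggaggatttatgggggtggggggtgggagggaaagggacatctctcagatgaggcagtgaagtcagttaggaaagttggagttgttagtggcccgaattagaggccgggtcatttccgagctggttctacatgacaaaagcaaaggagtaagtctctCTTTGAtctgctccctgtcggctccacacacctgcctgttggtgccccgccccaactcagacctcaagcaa
Dkk1, chr19:30549655-30549680: ggggagagtgTCAAAGtcctccctgc
Dkk1, chr19:30549598-30549623: cctcccaaagCTTTGAaatcccatcc
Frzb, chr2:80447476-80447501: ccctgaaaacTCAAAGccttctcgga
All these coordinates are on the minus strand. Fzd1 was lower and Wnt5b, Dkk1 and Frzb were higher in Lama4-/-, so genes with a match went both ways. A match is a description of letters and not a binding site.

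The other genes of the pathway were read from 7 lists, with 105 genes tested. None passed an adjusted p of 0.05 in edgeR (0.00511% of all genes). DESeq2 called 10 (2.91% of all 25491 genes, also those without an adjusted p). At an unadjusted p under 0.05, 24 were lower (7.97% of all genes) and 5 higher (3.67%), with a median log2 fold change of -0.44. Removal of the length trend gave a median of -0.10. Of the genes of planar polarity and the calcium branch, 23 of 25 were on the negative side (52.7% of all genes). At an unadjusted p under 0.05, 9 of them were lower and 0 higher, and their median of -0.92 became -0.22 with the length trend removed. The longest transcripts of these 25 genes had a median of 5879 bases. The calcium-responsive factor Nfatc3 was at 51.7, 59.2 and 51.5 against 23.5, 23.3 and 19.1 CPM, well apart, with a log2 fold change of -1.30 (SE 0.24, edgeR adjusted p = 0.302), or -0.66 after removal of the trend. Nfatc2 was at 195, 382 and 267 against 65.6, 156 and 97.4 CPM, and the kinase gene Rock2 at 126, 73.9 and 119 against 42.7, 53.7 and 51.5 CPM. Camk2d was at 86.0, 83.9 and 102 against 43.3, 57.2 and 57.4 CPM. Rock2 and Camk2d both went to -0.22 with the length trend removed.

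Within the beta-catenin cascade the destruction complex scaffold Axin1 was among 3 genes higher at an unadjusted p under 0.05 (3.67% of all genes). It was at 31.0, 17.6 and 33.3 CPM in wild type and at 46.9, 61.8 and 70.6 in Lama4-/-, with no overlap and a log2 fold change of 1.13 (SE 0.31, edgeR adjusted p = 0.323), or 1.27 after removal of the trend. Tankyrase (Tnks), the enzyme that marks axin for destruction, was at 41.4, 23.7 and 33.6 against 17.5, 8.17 and 9.97 CPM, and its log2 fold change of -1.47 became -0.43. The signal transducer Dvl3 was at 47.2, 38.4 and 48.0 against 29.7, 11.5 and 12.1 CPM, with -1.32 and, with the length trend removed, -1.10. The kinase gene Gsk3b was at 71.8, 32.5 and 99.7 against 29.9, 34.1 and 24.6 CPM and overlapped. Over the 24 genes of this list 3 were higher (3.67% of all genes) and 5 lower (7.97%) at an unadjusted p under 0.05, and the median was -0.16 (0.09 with the length trend removed).

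Target genes other than Axin2 and Lef1 lay on both sides. Of 20 tested, 2 were higher (3.67% of all genes) and 1 lower (7.97%) at an unadjusted p under 0.05. The median of the 20 was -0.32, and -0.16 with the length trend removed. Bambi, a target gene that encodes a decoy receptor for TGF-beta, was at 200.3, 152 and 174 against 342, 274 and 469 CPM, a log2 fold change of 1.04 (SE 0.24, edgeR adjusted p = 0.307). Tcf7, both a target and a nuclear effector, was at 24.9, 19.8 and 32.7 against 41.5, 38.5 and 71.1 CPM. Neither overlapped between genotypes, and both stayed positive with the length trend removed, at 1.53 and 0.82. Cd44, whose protein the sort selected against, was at 140.4, 69.7 and 150.4 against 52.8, 55.9 and 82.2 CPM and overlapped.

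Among TCF factors and nuclear cofactors 7 of 16 were lower (7.97% of all genes) and 1 higher (3.67%) at an unadjusted p under 0.05, and the median of -0.68 became -0.003 after removal of the trend. The corepressor Tle3 was at 53.5, 51.1 and 54.0 against 15.4, 25.6 and 25.4 CPM, and its value on the log2 scale was -1.26 before and -0.30 after removal of the trend. The acetyltransferase genes Crebbp and Ep300, with longest transcripts of 10820 and 9566 bases, went from -1.68 to -0.44 and from -1.34 to -0.24. Crebbp was at 135.1, 39.9 and 135.1 against 24.9, 29.1 and 43.2 CPM and overlapped. Ep300 was at 48.2, 29.8 and 50.5 against 18.7, 8.47 and 23.5 CPM. Cdc73, at 37.7, 35.8 and 38.6 against 19.9, 20.6 and 7.79 CPM, went from -1.21 to -0.12. Of the receptors and modulators outside the 39, Trabd2b, which encodes a protease that cleaves Wnt ligands, was at 69.6, 51.7 and 71.8 against 39.8, 34.7 and 26.7 CPM (-0.93, and -0.19 with the length trend removed). The R-spondin receptor gene Lgr6 was at 58.1, 30.4 and 57.9 against 7.81, 32.9 and 19.5 CPM and overlapped. In these 2 lists of 14 and 8 tested genes each had 1 lower gene at an unadjusted p under 0.05 and 0 higher. The 3 genes of Wnt secretion had 0 in either direction.

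**Figure D5:**
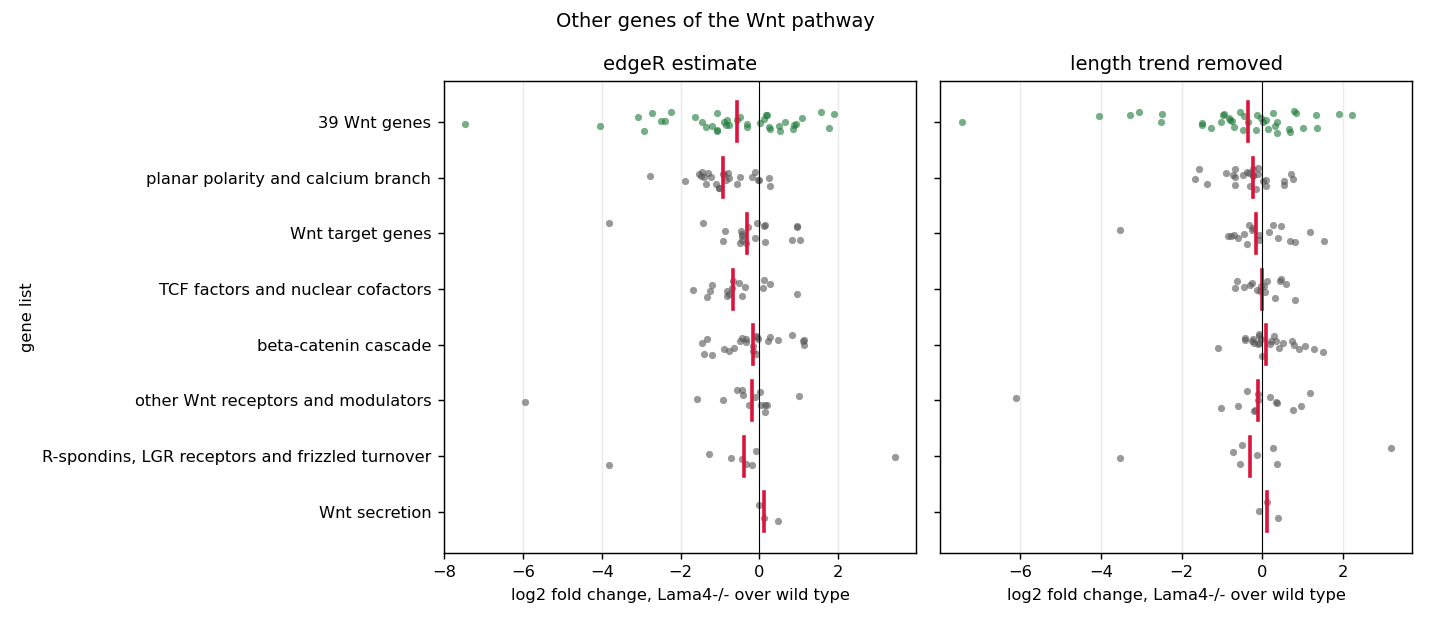
log2 fold change of Lama4-/- over wild type for each tested gene of the 7 pathway lists and of the 39 Wnt genes, as points, with the list's median as a red bar. The left panel shows the edgeR estimates and the right panel those after removal of the trend. There the median of the planar polarity and calcium list goes from -0.92 to -0.22 and that of the TCF list from -0.68 to -0.003.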

How the data were processed

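RNA of sorted mesenchymal progenitors was amplified with SMART-Seq v4 and made into Nextera XT libraries read as single ends, per the labels' protocols. The kit does not mark strand. The submitters' processing notes name STAR 2.6.1d, featureCounts, DESeq2 and GRCm38, with no parameters. The counts deposited by the authors stand under the heading for normalized values and are whole in 100% of cells. The block headed raw is a deposited signal, those counts times a constant per library between 0.708 and 1.98, and was not tested. Per the file headers the authors' DESeq2 columns hold a log2 fold change and its SE on the log2 scale, a Wald score, a mean signal, a p-value and an adjusted p-value. Values quoted from them come from the authors' deposited table.

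All 19573 genes with at least 10 counts in sum were fitted with edgeR 4.0.16 in R 4.3.3: TMM scaling, robust quasi-likelihood F test, 3 libraries against 3 with no covariate, Benjamini-Hochberg adjustment. SE is the log2 fold change divided by the square root of F. CPM values use TMM-adjusted totals. Transcript lengths and positions came from GENCODE M21 (99.9% of genes matched). The length trend was a lowess curve (span 0.3) per library, entered as an offset. Alternatives were 2 other scalings, 2 other filters, DESeq2 1.42.0, limma 3.58.1 (voom with quality weights), a replicate block and leaving out each library. Scripts were tested on simulated counts. Values in every library are given for tested members with a mean of at least 10 CPM or an unadjusted p under 0.05, for Axin2 and Lef1, and for at most 4 genes per pathway list at that p. Members and lists were chosen with earlier results of these data known. Library totals set the precision: 1 count is worth more CPM in wild type replicate 2 than elsewhere.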

Additional observations from a re-analysis of the deposited data

How the results depend on the processing

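No Wnt gene passed the adjusted threshold in any edgeR fit or with limma voom. DESeq2 called 4 Wnt genes and 10 genes of the pathway lists (2.91% of all 25491 genes, also those without an adjusted p). The replicate numbers were not taken to pair the libraries, since the deviations of same-numbered libraries correlated at 0.040, 0.132 and 0.0539, although each library correlated best with its own number. With the number as a replicate block, 0 Wnt genes were called and the median log2 fold change was -0.94. The median was -0.34 with the length trend removed and -0.87 to -0.41 with 1 library left out. In those leave-out fits 5 to 17 Wnt genes were at an unadjusted p under 0.05, beside 7.2% to 13.1% of all genes. The Lama4 value was -10.2 on the log2 scale with limma voom (adjusted p = 0.0636), -11.99 with the replicate block (0.352), -11.64 with the length trend removed (0.0579) and -12.12 to -11.85 with 1 library left out (0.0342 to 0.572). The cause of these shifts was not tested.

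Of the 26 Wnt genes with a mean of at least 10 CPM, an unadjusted p under 0.05 or a place as a target, 20 kept their direction under every alternative run. Outside the 26, Lrp5 was at 0.15 with the length trend removed. Leaving out 1 library gave -5.58 to 1.10 for Sost, -5.61 to 0.25 for Wnt1 and -0.36 to 5.19 for Wnt8a, also outside the 26. The genes of the 26 that changed direction were Wif1, Kremen1, Fzd9, Sfrp4, Sfrp2 and Fzd8. Wif1, near 0 throughout, was at -0.0040 with the filterByExpr filter and -0.0096 with the replicate block. It was at -0.16 with the length trend removed and -0.17 to 0.15 with 1 library left out. Kremen1 was at 0.10 with the length trend removed and at -0.58 to 0.037 with 1 library left out. Leaving out 1 library gave -0.44 to 0.55 for Fzd9, -0.16 to 0.57 for Sfrp4, -0.35 to 0.96 for Sfrp2 and -0.21 to 0.39 for Fzd8. Of the 39 genes 11 had 0 counts in at least 1 library. All 39 had counts in wild type replicate 2, the library with the lowest total, and 30 in Lama4-/- replicate 3.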
